A study of Rattus norvegicus with 43 samples.

Results

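Cytosolic ribosomal protein genes and translation factor genes were followed in the colonic mucosa of azoxymethane-treated rats. Members were taken by gene symbol from probes that the platform annotation pairs with a single symbol. Symbols of the forms Rpl, Rps and Rplp followed by a number gave 19 ribosomal protein probes of 18 genes. Symbols that begin with Eif1 to Eif6, Eef1 or Eef2 gave 28 translation factor probes of 27 genes. Together these were 45 of the 5628 genes that such probes name, and 47 of the 8452 probes on the array. Mitochondrial ribosomal proteins carry other symbols and were not included, and 8 ribosomal and 2 factor probes with several symbols were left out.

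The ribosome is built from a large and a small subunit, each a set of ribosomal proteins held on ribosomal RNA. Initiation factors bring the small subunit, the initiator tRNA and the mRNA together, and elongation factors then deliver each aminoacyl-tRNA and move the ribosome along. Many mRNAs of this machinery start with a run of pyrimidines, the terminal oligopyrimidine tract, through which mTOR signalling controls their translation. Initiation is slowed in mammalian cells when 1 of 4 related kinases phosphorylates eIF2 and thereby blocks its exchange factor, eIF2B. The colonic epithelium is renewed continuously from dividing crypt cells, which makes it a tissue with a high demand for new ribosomes.

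Male Sprague Dawley rats, described as weanling, had received their dietary fat as olive oil, fish oil or corn oil and had been given azoxymethane, a colon carcinogen, at 15 mg/kg body weight. The later rats of the study, called 10 wk as in their sample labels, were 5 fed corn oil, 4 fed fish oil and 5 fed olive oil. The earlier rats, taken 12 h after the injection, were 5 per diet. The treatment protocol gives the later rats a repeat injection and an interval of 9 wk after it, so that age, number of injections and time on the diet differed together between the time points and cannot be told apart. Every rat had received azoxymethane, no untreated rat was included, and a difference between times is therefore a difference between 2 carcinogen-treated states.

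RNA was hybridised to 43 single-colour CodeLink arrays from 29 rats, and the 14 repeat arrays of 10 rats were averaged with their rat's first array. Each rat was a separate animal. The median spot of an array lay 163.4 to 684.7 intensity units over its background, and the number of rats limits the precision. The colonocyte markers on the array, 5 in number, were bright at both times (summed log2 level 15.38 to 15.99 in 10 wk rats and 15.76 to 16.11 in 12 h rats). Geometry of the printed spots as the files record it split the arrays into 3 classes that were unevenly spread over the times. Arrays with a large background area came from 12 of the 10 wk rats and 3 of the 12 h rats. Arrays with a small background area came from 2 rats at 10 wk and 11 rats at 12 h. Arrays with large spots came from 2 rats at 10 wk and 4 rats at 12 h. Since the classes and the times overlap only in part, calls that were lost with the class as a block are named with the results.

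Levels are normalized log2 intensities, with a floor of 6.46 below which values were not ordered. A probe was tested if it exceeded 7.66 in at least 4 rats, which kept 6381 of the 8452 probes. Among the members, 18 of 19 ribosomal probes and 26 of 28 factor probes passed. Rpl28, a large subunit protein, did not pass, with a median level of 6.83 in 10 wk rats and 6.76 in 12 h rats. The eIF2B gamma subunit Eif2b3 also stayed out, with medians of 7.16 in 10 wk rats and 7.09 in 12 h rats. The cap-binding homologue Eif4e3 was at the floor in 3 of the 10 wk rats and 1 of the 12 h rats and was not tested. Levels of different probes are not compared with each other, since a probe's brightness depends on its own sequence.

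The first comparison, averaged over the 3 diets, asked which members differed between 10 wk and 12 h. Ribosomal protein probes were shifted upward by a small amount, while factor probes moved in both directions and held the larger single differences. Of the 18 ribosomal probes, 6 were higher at 10 wk and 0 were lower, with a median log2 difference of 0.16. Of the 26 factor probes, 3 were higher and 5 were lower, with a median of -0.03. Over all tested probes the median was 0.0026, 36.9% passed the threshold, 19.2% as higher and 17.7% as lower. By limma's moderated test with Benjamini-Hochberg adjustment over all tested probes, the share of ribosomal probes called in either direction, 33.3%, was thus near that of all probes. All of the called ribosomal probes lay on the higher side, where 33.3% compares with 19.2% of all probes. Factor probes were called in 30.8%. The median standard deviation between rats within groups was 0.20 for ribosomal probes, 0.21 for factor probes and 0.21 for all tested probes. In bulk mucosa, a change in the cells present and a change in RNA per cell cannot be told apart.

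**Figure D1:**
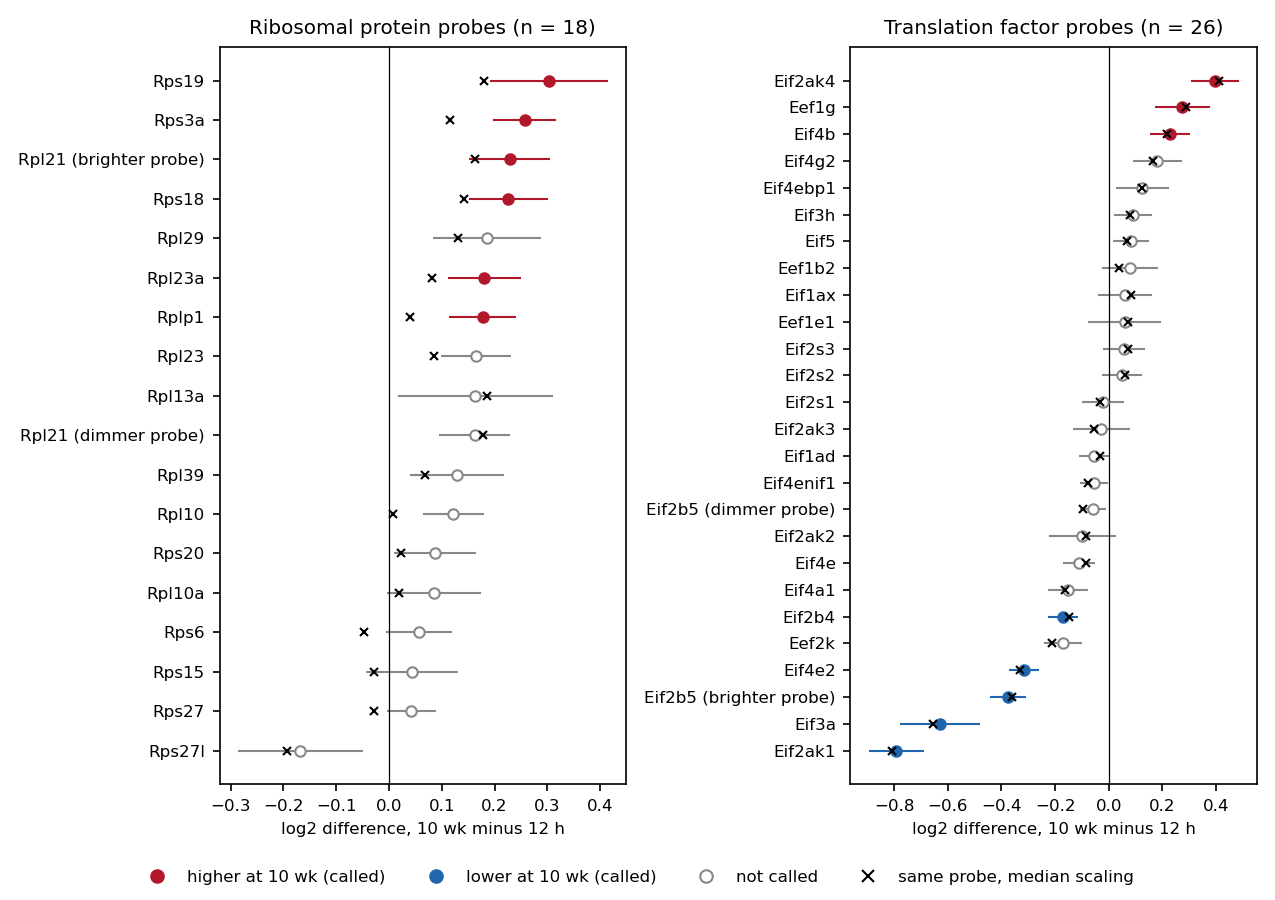
Log2 difference (10 wk minus 12 h, averaged over diets, horizontal axis) with its standard error for each tested ribosomal protein probe (left) and translation factor probe (right), coloured where the adjusted p passed 0.05. Crosses give the same probe after median scaling and lie left of the quantile-normalized points for most bright ribosomal probes, for example 0.04 against 0.18 for Rplp1, but close to them for the factor probes.

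Among large subunit probes, all 10 tested lay above 0, from 0.09 to 0.23 on the log2 scale, and 3 passed the test. Rpl21 has a bright and a dimmer probe. The bright Rpl21 probe had levels of 13.39, 13.67 and 14.05 in 10 wk rats (lowest, median and highest of 14) and 13.12, 13.49 and 13.83 in 12 h rats (of 15). The ranges overlapped, although 13 of the 14 later rats lay above the 12 h mean. The difference was 0.23 ± 0.08 (standard error of the fit, as for every difference here; adjusted p = 0.0208), a 1.17-fold higher level. The dimmer Rpl21 probe lay on the same side at 0.16 ± 0.07 and missed the threshold (adjusted p = 0.059).

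Rplp1, an acidic protein of the stalk that recruits translational GTPases, had levels of 14.48, 14.82 and 15.15 in 10 wk rats (lowest, median and highest) and 14.24, 14.62 and 14.93 in 12 h rats. Its difference was 0.18 ± 0.06 (adjusted p = 0.0303). Rpl23a, which sits at the peptide exit tunnel, had levels of 13.72, 14.08 and 14.38 in 10 wk rats and 13.59, 13.95 and 14.30 in 12 h rats. It differed by 0.18 ± 0.07 (adjusted p = 0.0432), and this call was lost in 17 of the 29 analyses that left out 1 rat, with an adjusted p of up to 0.104. For Rplp1 the call was lost without any 1 of 6 rats (132, 104, 234, 236, 335 or 305), with an adjusted p of up to 0.0646. Both probes thus lay close to the threshold. Among the probes that were not called, Rpl10 had a difference of 0.12 ± 0.06, Rpl23 of 0.16 ± 0.07 and Rpl29 of 0.19 ± 0.10.

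Among the 8 small subunit probes, 3 were higher at 10 wk. Rps3a had the most regular pattern, with levels of 14.68, 14.89 and 15.15 in 10 wk rats (lowest, median and highest) and 14.43, 14.67 and 14.89 in 12 h rats. All 14 later rats lay above the 12 h mean, and the groups still overlapped. The difference was 0.26 ± 0.06 (adjusted p = 0.00155), or 1.20-fold. Leaving out any single rat kept the adjusted p at or below 0.00451.

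Rps18, a protein of the small subunit head, had levels of 14.14, 14.52 and 14.77 in 10 wk rats and 13.89, 14.33 and 14.60 in 12 h rats. Its difference of 0.23 ± 0.07 passed the test (adjusted p = 0.019). Rps19, mutated in the human congenital anaemia Diamond-Blackfan, had levels of 14.21, 14.58 and 15.05 in 10 wk rats and 13.49, 14.37 and 14.88 in 12 h rats. It showed the highest difference of the family, 0.30 ± 0.11 (adjusted p = 0.0343), and also a wide spread at 12 h, where rats fed olive oil reached from 13.49 to 14.66. Its call was lost without any 1 of 9 rats, with an adjusted p of up to 0.0772.

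Rps6, the substrate of S6 kinase that is often used as a readout of mTOR activity, did not pass. Its levels were 14.45, 14.74 and 14.93 in 10 wk rats and 14.37, 14.70 and 15.00 in 12 h rats (difference 0.06 ± 0.06, adjusted p = 0.502). Rps15, Rps20 and Rps27 had differences of 0.04, 0.09 and 0.04 and were not called. Rps27l, a paralogue of Rps27 that p53 induces after DNA damage, was the 1 ribosomal probe below 0, at -0.17 ± 0.12 (adjusted p = 0.275). Its levels were 7.47, 8.24 and 8.80 in 10 wk rats and 7.54, 8.52 and 9.11 in 12 h rats. Ribosomal protein genes have many processed pseudogenes in rodents, and cross-hybridisation of the probes was not checked here.

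**Figure D2:**
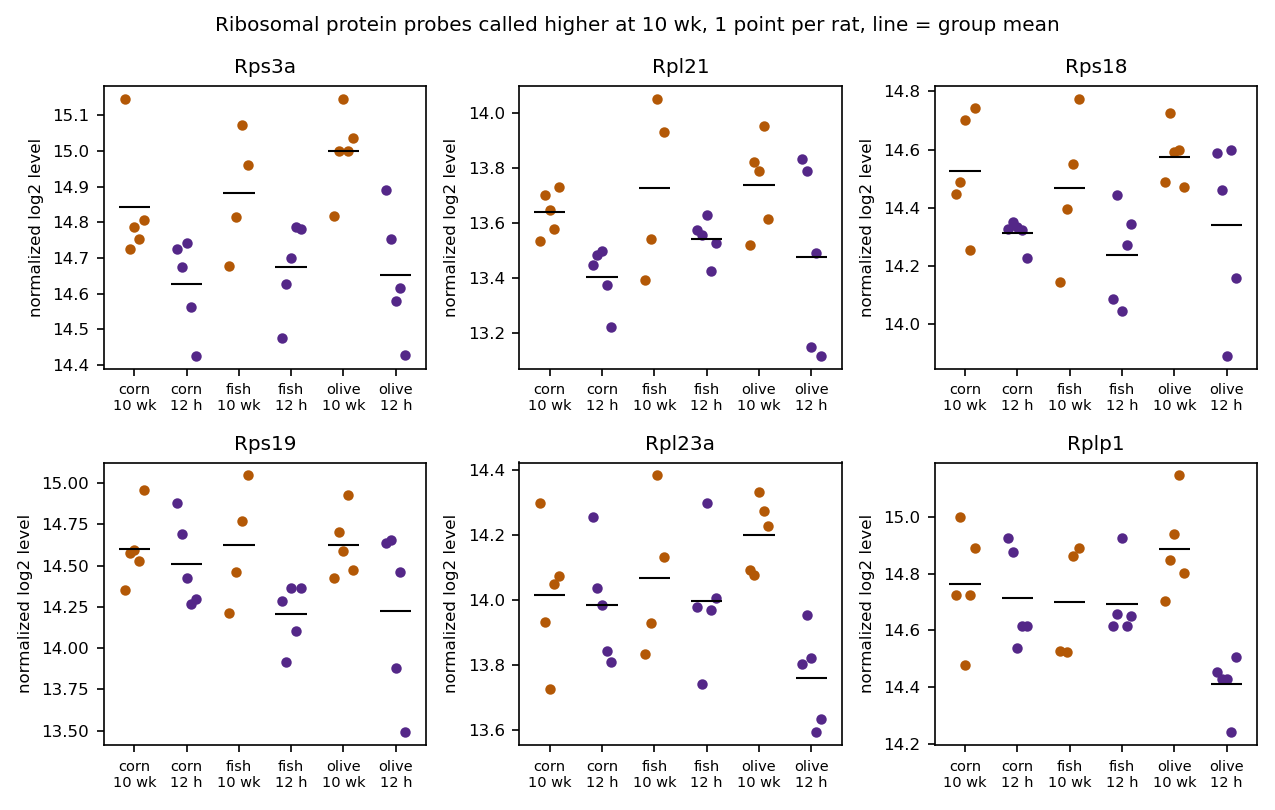
Normalized log2 level (vertical axes) of the 6 ribosomal protein probes called higher at 10 wk, 1 point per rat in the 6 diet and time groups, with a line at each group mean. The points of the times overlap in most diets, and for Rplp1 the groups separate in olive oil rats, where the later rats lie between 14.70 and 15.15 and the earlier ones between 14.24 and 14.51.

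The sequence at the annotated transcription start was read for members found in RefSeq's GRCr8 promoter table, to show which carry the pyrimidine run described above. Of the 18 ribosomal genes 16 were matched, and 23 of the 27 factor genes. The motif searched on the transcript's strand alone was a C followed by at least 4 bases that were C or T, starting within 10 bases of the annotated start. It was found in 14 of 16 ribosomal genes (87.5%), in 7 of 23 factor genes (30.4%) and in 28.9% of all 33469 promoters in the table. The annotated first base was itself a C followed by such a run in 9 ribosomal genes (56.2%), in 0 factor genes and in 2.63% of all promoters. A match is a description of these letters and not evidence of control. The windows below run 15 bases to either side of the start, 5′ to 3′, with the run in capitals. The first 5 belong to called ribosomal genes with a matched window, and Eif2ak1, the factor member with the largest difference, is set beside them.
Rplp1: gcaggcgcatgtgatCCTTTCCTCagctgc
Rps3a: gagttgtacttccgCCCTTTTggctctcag
Rps18: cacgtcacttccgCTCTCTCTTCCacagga
Rpl21: ttcctttccgccggggcagccatCTTCCag
Rps19: cccgacttgtgcgcccgggaaaccccgtcg
Eif2ak1: aggttgttatccgcgctcgcggcaacgatg
These windows lie at chr8:71290858-71290887 on the minus strand for Rplp1, chr2:173827028-173827057 on the minus strand for Rps3a and chr20:4933730-4933759 on the plus strand for Rps18. Those of Rpl21 (chr12:13386139-13386168, minus strand), Rps19 (chr1:89608673-89608702, plus strand) and Eif2ak1 (chr12:15858150-15858179, minus strand) complete the set. Rplp1, Rps3a and Rps18 hold the run at or beside the annotated start, Rpl21 holds it 8 bases downstream, and no run was found in the windows of Rps19 and Eif2ak1. The Rpl21 window also holds a longer pyrimidine run upstream, in lower case because it starts outside the 10 bases searched. All 6 are GRCr8 coordinates.

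The size of the ribosomal shift depended on the normalization. After median scaling of each array, which moves all probes of an array by the same amount, the median over ribosomal probes was 0.07 and 2 of 18 were called higher, both of them Rpl21 probes, against 17.4% of all probes called higher and 17.4% called lower. After cyclic loess the median was 0.14 and 3 were called higher (Rps3a, Rps18 and the bright Rpl21 probe), with 18.1% of all probes higher and 19.2% lower. No ribosomal probe was called lower under either. Rps3a had a difference of 0.11 after median scaling (adjusted p = 0.178) and 0.21 after cyclic loess (adjusted p = 0.0182). Large subunit probes kept a median of 0.08 after median scaling, whereas small subunit probes were centred at -0.0031, with 4 of 8 below 0. The diets differed in this respect. After median scaling, the median log2 deviation of a rat from the ribosomal probe means was averaged per group. In corn oil rats it was 0.06 at 12 h and -0.01 at 10 wk. In fish oil rats it was 0.04 and 0.06, and in olive oil rats -0.18 and 0.04.

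Most of the ribosomal probes are very bright. The 15 bright ribosomal probes had mean levels from 13.22 to 14.78, and 123 other tested probes lay in that range. Under quantile normalization the bright ribosomal probes had a median difference of 0.16 and the other bright probes one of 0.0098. Under median scaling the medians were 0.07 and -0.06, and under cyclic loess 0.14 and -0.0088. The bright ribosomal probes were centred above the other bright probes under all 3. With the spot geometry class as a block the medians were 0.11 and 0.01. The other probes share only the range of levels, and the part of brightness in the shift was not tested. In the authors' deposited normalized values constants stand in for the signal on 11 of the 19 ribosomal probes in at least 1 diet, and the medians were -0.12 for the bright ribosomal probes and -0.08 for the others. There 0 of 18 ribosomal probes were called, with 13.7% of all probes called higher and 5.45% lower.

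**Figure D3:**
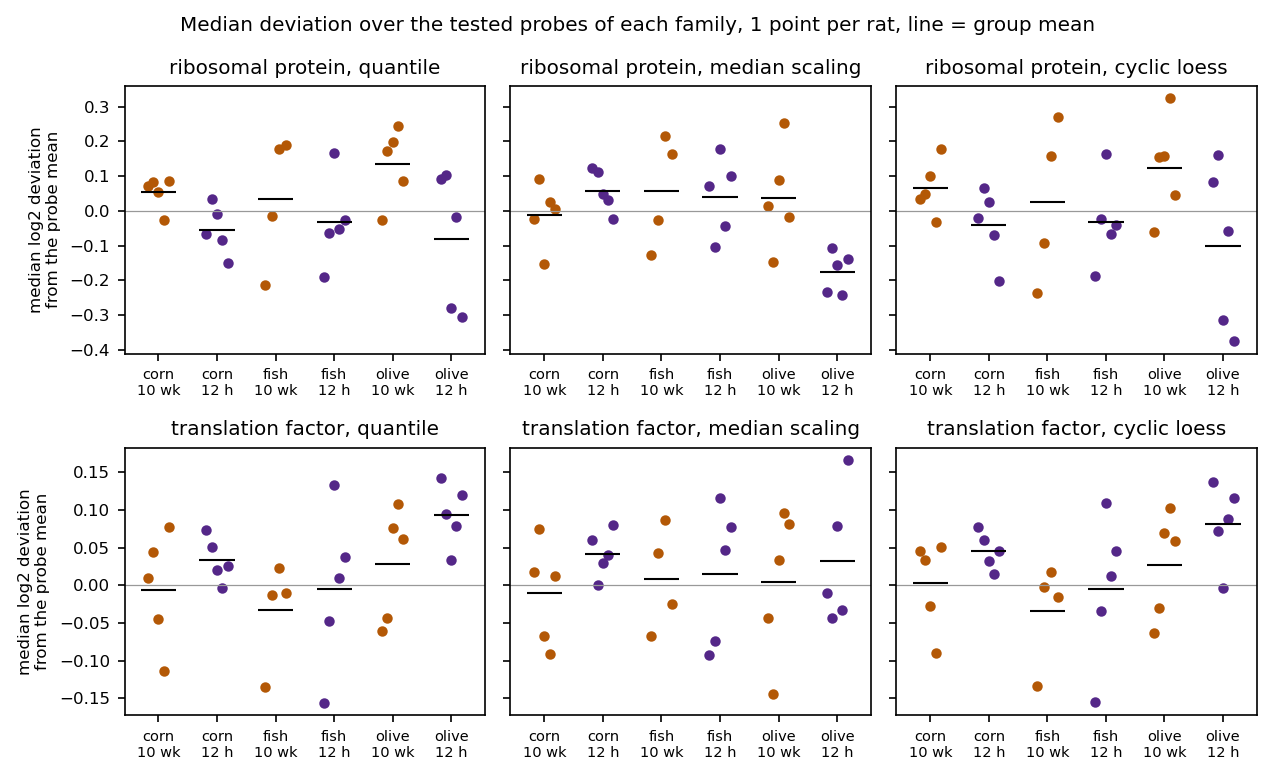
Median log2 deviation of each rat from the probe means (vertical axes), over the tested ribosomal protein probes (top) and translation factor probes (bottom), under 3 normalizations, 1 point per rat and a line at each group mean. In olive oil rats at 12 h the ribosomal points are split from -0.31 to 0.10 under quantile normalization but lie together from -0.24 to -0.11 under median scaling. Under quantile normalization rats 301, 302 and 305, on arrays of large spots, are at 0.09, 0.10 and -0.02. Rats 304 and 306, on arrays of small background area, are at -0.28 and -0.31. The part of the class in this split was not tested.

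With the spot geometry class as a block, 3 of 18 ribosomal probes were called higher (Rps18, Rps3a and the bright Rpl21 probe) and 0 lower, and the calls of Rplp1, Rpl23a and Rps19 were lost. The median was 0.10, and 11.5% of all probes were called higher and 9.98% lower. Within arrays of large background area, which hold most of the later rats, the median over ribosomal probes was 0.03 and 10 of 18 lay above 0. Rps3a was at 0.18 there and Rps18 at 0.15, while Rplp1 was at -0.08, Rps19 at -0.13 and Rpl23a at -0.006. The median was 0.10 within arrays of large spots and 0.22 within arrays of small background area, where Rps19 was at 0.93 over 2 later and 11 earlier rats. The upward shift of Rplp1 and Rps19 was therefore not seen within the class that holds 12 of the later rats. The earlier rats of that class were 102 and 103, fed corn oil, and 206, fed fish oil. Later olive oil rats were in it and earlier ones were not, so diet and time were mixed there. The part of the class in these differences was not tested further.

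Translation factor and regulator probes held the larger differences. Eif2ak1, also called HRI, is the kinase that phosphorylates eIF2 when haem is scarce, and it fell most. Its levels were 6.85, 8.001 and 8.36 in 10 wk rats (lowest, median and highest) and 7.97, 8.76 and 9.01 in 12 h rats. All 14 later rats lay below the 12 h mean, and the groups overlapped through 2 fish oil rats at 12 h with levels of 7.97 and 8.34. The difference was -0.79 ± 0.10 (adjusted p = 2.57e-06), a 1.73-fold lower level. It was -0.81 after median scaling, -0.80 after cyclic loess and -0.69 with the class as a block, and lay between -0.60 and -0.82 within the 3 classes. Alas2, the haem synthesis enzyme of red cell precursors and the 1 erythrocyte marker on the array, was also lower at 10 wk (-0.62 ± 0.19, adjusted p = 0.0116), with levels of 6.79 to 8.31 in 10 wk rats and 6.92 to 9.11 in 12 h rats. The call of Alas2 was lost with the class as a block (-0.60, adjusted p = 0.0601). Its part in the Eif2ak1 difference was not tested.

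Eif2ak4, also called GCN2 and activated by uncharged tRNA in amino acid shortage, went the other way. Its levels were 10.15, 10.67 and 11.20 in 10 wk rats and 9.99, 10.37 and 10.67 in 12 h rats, and 12 of 14 later rats lay above the 12 h mean. The difference of 0.40 ± 0.09 passed the test (adjusted p = 0.00126) and missed it with the class as a block (0.31, adjusted p = 0.0531). The remaining eIF2 kinases were not called. Eif2ak3, or PERK, the sensor of endoplasmic reticulum stress, differed by -0.03 ± 0.11 (adjusted p = 0.858), and Eif2ak2, or PKR, the sensor of double-stranded RNA, by -0.10 ± 0.13 (adjusted p = 0.569). Fish oil rat 203 at 12 h was at 8.44 for Eif2ak2, with the others of its group at 9.85 to 10.31, and without that rat the adjusted p was 0.0192.

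The substrate of these kinases showed little difference. The eIF2 alpha subunit Eif2s1 had levels of 11.49, 11.83 and 12.10 in 10 wk rats and 11.29, 11.89 and 12.10 in 12 h rats, a difference of -0.02 ± 0.08 (adjusted p = 0.846). The beta subunit Eif2s2 and the gamma subunit Eif2s3 had differences of 0.05 and 0.06. Of eIF2B, the exchange factor that recycles eIF2, the epsilon subunit Eif2b5, which carries the catalytic domain, has 2 probes. Its brighter probe had levels of 8.15, 8.96 and 9.21 in 10 wk rats and 8.76, 9.25 and 9.42 in 12 h rats, with all 14 later rats below the 12 h mean. That probe fell by 0.38 ± 0.07 on the log2 scale (adjusted p = 0.000102). The dimmer Eif2b5 probe, near the filter at 7.66 to 7.95 in 10 wk rats and 7.65 to 7.99 in 12 h rats, had a difference of -0.06 ± 0.05 (adjusted p = 0.354), so that the probes of this gene disagree in size. The delta subunit Eif2b4 had levels of 10.15, 10.41 and 10.61 in 10 wk rats and 10.34, 10.58 and 10.92 in 12 h rats, with 13 of 14 later rats below the 12 h mean. Its difference was -0.17 ± 0.05 (adjusted p = 0.0161), and after median scaling it was -0.15 and missed the threshold (adjusted p = 0.0601).

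Eif3a, the scaffold subunit of the eIF3 complex that binds the small subunit, had levels of 6.55, 7.63 and 7.81 in 10 wk rats and 7.14, 8.13 and 8.70 in 12 h rats. All 14 later rats lay below the 12 h mean, but the probe is dim and several of its levels fell under the filter value. The difference was -0.63 ± 0.15 (adjusted p = 0.00184) and -0.85 with the class as a block. Eif3h, another subunit of that complex, was not called at 0.09 ± 0.07.

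Among the cap-binding factors, Eif4e2 was lower at 10 wk. It encodes 4EHP, a homologue of eIF4E that binds the cap without recruiting eIF4G and represses its mRNAs. The levels of Eif4e2 were 11.47, 11.67 and 11.89 in 10 wk rats and 11.82, 12.00 and 12.40 in 12 h rats. All 14 later rats lay below the 12 h mean, and the ranges overlapped between 11.82 and 11.89. Its difference was -0.32 ± 0.05 (adjusted p = 8.68e-05), with -0.33 after median scaling and -0.26 with the class as a block. Within the classes it was -0.38 for large background area and -0.12 for each of the others.

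Eif4e itself, the main cap-binding protein, had levels of 10.37, 10.69 and 10.93 in 10 wk rats and 10.56, 10.76 and 10.95 in 12 h rats and was not called (-0.11 ± 0.06, adjusted p = 0.146). With the class as a block Eif4e was lower at 10 wk (-0.27, adjusted p = 0.0058). Its inhibitor Eif4ebp1 differed by 0.13 ± 0.10 (adjusted p = 0.334) and the helicase Eif4a1 by -0.15 ± 0.08 (adjusted p = 0.112). Eif4b, which stimulates that helicase, was higher. It had levels of 11.91, 12.49 and 12.73 in 10 wk rats and 11.82, 12.30 and 12.50 in 12 h rats, with a difference of 0.23 ± 0.07 (adjusted p = 0.018) that was 0.18 with the class as a block (adjusted p = 0.155). Eif4g2, a relative of eIF4G that works without the cap-binding protein, had a difference of 0.18 ± 0.09 and was not called (adjusted p = 0.114).

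Elongation was covered by only 2 factor genes, Eef1g and Eef1b2, since Eef1a1 and Eef2 had no single-symbol probe. Of these, Eef1g, a structural subunit of the exchange complex of elongation factor 1, was higher at 10 wk. Its levels were 11.04, 11.49 and 11.79 in 10 wk rats and 10.38, 11.29 and 11.49 in 12 h rats. The difference of 0.28 ± 0.10 passed narrowly (adjusted p = 0.0352) and was lost with the class as a block (0.23, adjusted p = 0.254) and without any 1 of 9 rats, with an adjusted p of up to 0.0755. Eef1b2, another subunit of that complex, differed by 0.08 ± 0.11. Eef2k, the kinase that inhibits elongation factor 2, differed by -0.17 ± 0.07 and missed the threshold (adjusted p = 0.0593). Eif1ad, Eif1ax, Eif5, Eif4enif1 and Eef1e1 had differences from -0.06 to 0.08, and none was called.

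**Figure D4:**
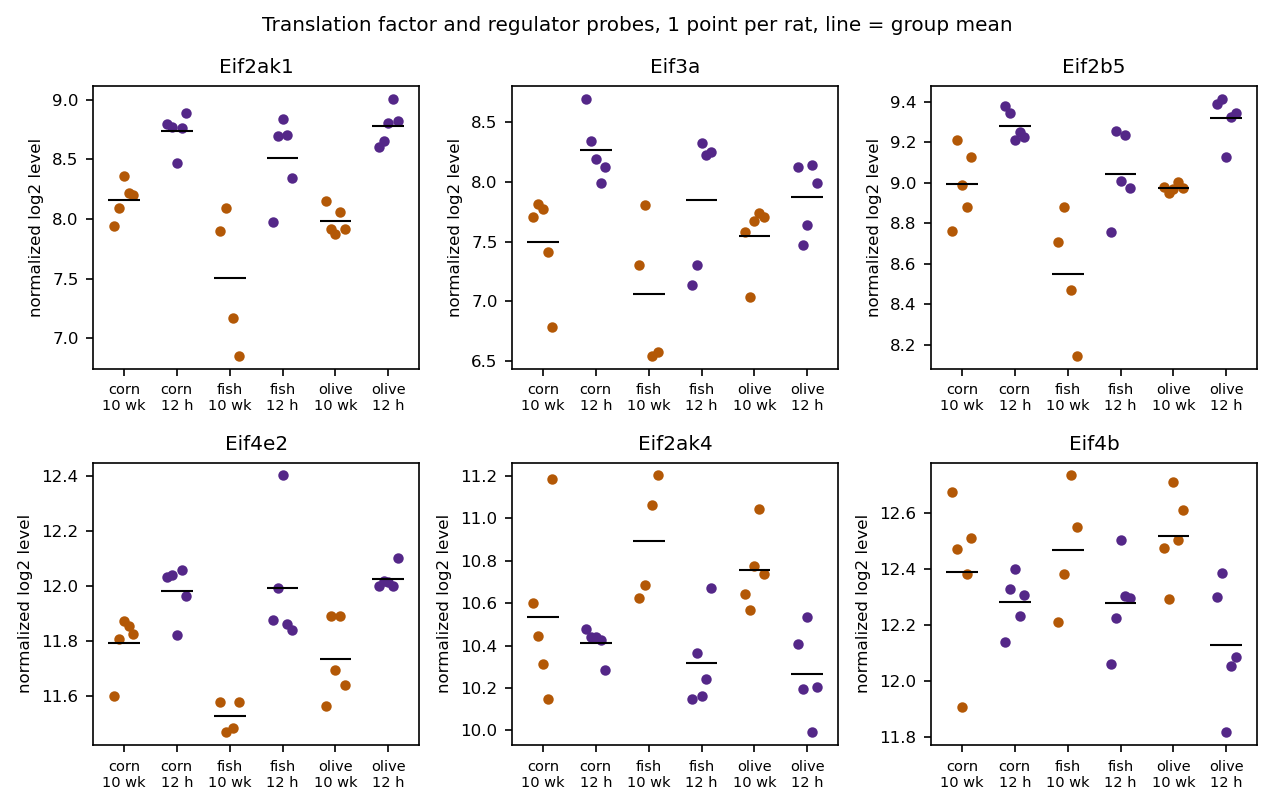
Normalized log2 level (vertical axes) of 6 translation factor and regulator probes, 1 point per rat in the 6 diet and time groups, with a line at each group mean. Eif2ak1, Eif3a, the brighter Eif2b5 probe and Eif4e2 lie lower at 10 wk in each diet's mean, and Eif2ak4 and Eif4b higher, with the later fish oil rats reaching down to 6.85 for Eif2ak1 and to 8.15 for Eif2b5.

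Unlike those of the ribosomal probes, the counts of factor probes were the same under the 3 normalizations of the intensities, with 3 higher and 5 lower under each, although after median scaling Eef2k stood among the lower probes in place of Eif2b4. With the class as a block 0 were higher and 6 lower, Eif4e being the sixth. Eif2ak1, the brighter Eif2b5 probe and Eif4e2 passed the test under each of the 14 or 15 alternative settings run for them and in all 29 analyses that left out 1 rat. In the authors' deposited normalized values Eif2ak1, with constants in 1 diet, was at -0.46, Eif2b5 at -0.32, Eif4e2 at -0.28 and Eif2ak4 at 0.48, each past the threshold, and Eif3a at -0.40 was not (adjusted p = 0.0786). Read by diet in those values, Eif2ak1 was at -0.08 in fish oil rats (adjusted p = 0.914) and at -0.88 in olive oil rats (adjusted p = 0.00586).

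The comparison of 10 wk with 12 h was then read within each diet. In corn oil rats 0 of 18 ribosomal and 0 of 26 factor probes were called by limma, where 3.02% of all probes were (1.5% higher and 1.52% lower). At an unadjusted p under 0.05, limma gave 1 ribosomal and 4 factor probes. Eif2ak1 had levels of 7.94, 8.09, 8.36, 8.22 and 8.21 in the corn oil rats at 10 wk and 8.80, 8.77, 8.47, 8.76 and 8.89 at 12 h. These groups did not overlap, and the difference was -0.58 ± 0.17 (adjusted p = 0.0608). The corn oil groups were also apart for the bright Rpl21 probe, the brighter Eif2b5 probe and Eif3a, none of them called. Such uncalled members were not particular to corn oil, since the olive oil groups were apart for Rpl10a and Eef2k. The share of all tested probes without overlap was not counted in any diet.

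In fish oil rats 0 ribosomal probes were called, with 2 at an unadjusted p under 0.05, and 1 factor probe was higher and 3 were lower, against 12.1% of all probes called (6.19% higher and 5.92% lower). Eif2ak1 was lower, with levels of 7.90, 8.09, 7.17 and 6.85 in the fish oil rats at 10 wk and 7.97, 8.69, 8.84, 8.70 and 8.34 at 12 h (-1.005 ± 0.18, adjusted p = 0.00142). Eif4e2 had levels of 11.58, 11.47, 11.49 and 11.58 at 10 wk and 11.88, 11.99, 12.40, 11.86 and 11.84 at 12 h, groups that did not overlap (-0.47 ± 0.10, adjusted p = 0.00379). The brighter Eif2b5 probe had 8.71, 8.88, 8.47 and 8.15 at 10 wk and 8.76, 9.25, 9.01, 9.23 and 8.97 at 12 h (-0.50 ± 0.12, adjusted p = 0.00854). Eif2ak4 had levels of 10.62, 10.69, 11.06 and 11.20 at 10 wk and 10.15, 10.37, 10.16, 10.24 and 10.67 at 12 h (0.57 ± 0.16, adjusted p = 0.0214). Its call was lost without rat 234, 236 or 203, and that of Eif2b5 without rat 236. With the class as a block both calls were lost, at 0.43 for Eif2ak4 (adjusted p = 0.161) and -0.40 for Eif2b5 (adjusted p = 0.155). Eif2ak1 (-0.87, adjusted p = 0.0212) and Eif4e2 (-0.37, adjusted p = 0.0499) kept theirs. None of these calls was kept with the deposited normalized values, where Eif2ak1, with constants in 1 diet, was at -0.08 (adjusted p = 0.914).

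In olive oil rats 4 ribosomal probes were higher, with 0 lower, and 2 factor probes were higher and 4 lower, against 13.4% of all probes called (7.85% higher and 5.5% lower). Rplp1 had levels of 14.70, 14.85, 14.94, 15.15 and 14.80 in the olive oil rats at 10 wk and 14.45, 14.43, 14.43, 14.24 and 14.51 at 12 h. The groups did not overlap (0.48 ± 0.11, adjusted p = 0.00512). Rpl23a had 14.09, 14.08, 14.33, 14.27 and 14.23 at 10 wk and 13.80, 13.95, 13.82, 13.59 and 13.63 at 12 h, again apart (0.44 ± 0.12, adjusted p = 0.0153). Rps3a differed by 0.35 ± 0.10 (adjusted p = 0.0242), and Rpl10, which joins the large subunit in its last maturation steps, by 0.29 ± 0.10 (adjusted p = 0.0433). After median scaling or with the class as a block, 0 ribosomal probes were called in olive oil rats, although the median over the 18 probes was 0.26 under quantile normalization and 0.23 under median scaling. Of the later olive oil rats only rat 333 shared a class, large spots, with earlier ones (rats 301, 302 and 305). Class and time could thus hardly be told apart in this diet.

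Among the factor probes in olive oil rats, Eif2ak1 had levels of 8.15, 7.92, 7.87, 8.06 and 7.91 at 10 wk and 8.60, 8.65, 8.80, 9.01 and 8.82 at 12 h, without overlap (-0.79 ± 0.17, adjusted p = 0.00417). Eif2ak4 differed by 0.49 ± 0.15 (adjusted p = 0.0337), and its groups did not overlap. Eif4e2, the brighter Eif2b5 probe and Eif2b4 were lower by 0.29, 0.34 and 0.29 on the log2 scale, and Eif4b was higher by 0.39. For these 4, the adjusted p lay between 0.0376 and 0.0408, and the calls were lost after median scaling and with the class as a block. The class as a block also ended the calls of Eif2ak1 (-0.68, adjusted p = 0.0942) and Eif2ak4 (0.30, adjusted p = 0.395), so that it left 0 factor probes called in olive oil rats. Here too, rat 333 was the only later olive oil rat that shared a class with earlier ones. Eif2ak4 was lost as well with the deposited values and without any 1 of 6 rats. A call in 1 diet and not in another does not show that the diets differ. The test of that difference, the diet by time interaction, called 0 of 44 members and 0% of all probes (0 of 6381). Unadjusted values were below 0.05 for 3 members, Rplp1, Eif5 and Rpl23a, and for 260 of all probes. The limma adjusted p of each of these members was 0.938.

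Diets were compared at each time in 6 contrasts. No member was called in any of them by limma. Called shares of all probes were 0% for fish oil minus corn oil, olive oil minus corn oil and fish oil minus olive oil at 12 h, 0.0627% for fish oil minus corn oil at 10 wk, and 0% for the other two contrasts at 10 wk. The lowest adjusted p of a member was 0.11, for the brighter Eif2b5 probe in fish oil minus corn oil at 10 wk. Its levels were 8.71, 8.88, 8.47 and 8.15 in fish oil rats and 8.76, 9.21, 8.99, 8.88 and 9.13 in corn oil rats, a difference of -0.44 ± 0.12. In the same contrast Eif2ak1 differed by -0.66 ± 0.18 (adjusted p = 0.132) and Eif4e2 by -0.26 ± 0.10 (adjusted p = 0.322). At an unadjusted p under 0.05 this contrast gave 0 ribosomal and 4 factor probes. The olive oil minus corn oil contrast at 12 h gave 3 ribosomal probes and 0 factor probes at that level, among them Rplp1 at -0.30 ± 0.11 (adjusted p = 0.416).

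Genes that act around the ribosome were read from related lists, whose counts stand against 19.2% of all tested probes called higher and 17.7% called lower. Among ribosome-associated proteins 1 of 6 was higher, Rack1, a scaffold on the small subunit (0.23 ± 0.07, adjusted p = 0.00956). That call was lost with the class as a block (0.21, adjusted p = 0.0812) and after median scaling (adjusted p = 0.093). Tpt1, whose mRNA also starts with a pyrimidine run in mammals, differed by 0.11 ± 0.05 and was not called. Of 22 ribosome biogenesis genes 2 were higher and 0 lower, a smaller share than of all probes, with a median of 0.04. They were Polr1b, a core subunit of RNA polymerase I (0.42 ± 0.08, adjusted p = 0.000211), and Nop58, a protein of the box C/D particles that guide rRNA methylation (0.30 ± 0.11, adjusted p = 0.0348), and both kept their calls with the class as a block. Fbl, Ncl and Npm1, the most abundant nucleolar proteins of the list, had differences of 0.19, 0.07 and -0.03 and were not called.

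Of the 12 tested genes of mTOR and Myc control, 1 was higher and 2 were lower, against 36.9% of all tested probes called in either direction, and the median was -0.02. Pdpk1, the kinase that activates AKT and S6 kinase, was lower by 1.06 ± 0.15 on the log2 scale (adjusted p = 6.54e-06), and Rptor, the mTOR complex subunit that binds substrates, was higher at 0.25 ± 0.10 (adjusted p = 0.0485). Pdk1, which in current nomenclature is a pyruvate dehydrogenase kinase and not an mTOR regulator, was the other lower gene (-0.28 ± 0.09, adjusted p = 0.0194). With the class as a block Pdpk1 kept its call, while Rptor (0.16, adjusted p = 0.376) and Pdk1 (-0.26, adjusted p = 0.115) lost theirs, and Rptor also missed the threshold after median scaling (adjusted p = 0.0616). Mtor and Myc differed by -0.08 and 0.18 and were not called. Among 4 termination and recycling genes 1 was higher, the ribosome rescue factor Hbs1l (0.20 ± 0.07, adjusted p = 0.0205), and among 13 aminoacyl-tRNA synthetase genes 1 was lower, the lysyl enzyme Kars1 (-0.18 ± 0.06, adjusted p = 0.0259). Both counts lie below the 36.9% of all probes. Kars1 kept its call with the class as a block, and Hbs1l lost it there (0.19, adjusted p = 0.0746) and after median scaling (adjusted p = 0.0514).

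Markers of cell types and of division were read beside the 36.9% of all tested probes called, 19.2% as higher and 17.7% as lower. Of 5 proliferation genes 3 were higher at 10 wk, Mki67 (0.60), Ccna2 (0.53) and Cdk1 (0.52), and 0 were lower. Pcna (-0.19, adjusted p = 0.0837) and Mcm5 (-0.02, adjusted p = 0.928) were not called. The summed log2 level of all 5 ranged from 11.84 to 12.55 in 10 wk rats and from 11.37 to 12.47 in 12 h rats. Smooth muscle markers were higher in 3 of 4, with sums of 9.78 to 11.05 in 10 wk rats and 9.37 to 10.60 in 12 h rats. Colonocyte markers were lower in 2 of 5, Klf4 and Cdhr5. Gzmb, of cytotoxic lymphocytes, was lower by 0.98 on the log2 scale, and the fibroblast gene Col1a1 by 0.23. Lck, the other tested T and NK cell gene, was not called (-0.20, adjusted p = 0.115). It passed with the class as a block (-0.31, adjusted p = 0.0478). With the class as a block the called proliferation genes, Klf4, Gzmb and the smooth muscle gene Smtn (adjusted p = 0.0407) kept their calls, and Smtn missed the threshold after median scaling (adjusted p = 0.0697). Myh11 (adjusted p = 0.0511) and Tagln (adjusted p = 0.203) of smooth muscle, Cdhr5 (adjusted p = 0.0786) and Col1a1 (adjusted p = 0.149) lost theirs with the class as a block. The B and plasma cell genes Cd74 and Jchain, the macrophage genes Lyz2, C1qa and Cd14 and the goblet gene Tff3 were not called, although Tff3 passed after median scaling (adjusted p = 0.00951). No marker on the array was at the floor in every rat. The part of these markers in the ribosomal and factor differences was not tested.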

How the data were processed

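Colonic mucosa RNA was read on single-colour arrays, 1 file per array. The deposited files give spot mean and background median as linear intensity values, per the file headers, and missing spots were left out. The program that read the scans is not known from the labels or headers. The authors' deposited normalized intensity carries constants on many probes and served only as an alternative. Spot mean and background median were corrected by normexp (offset 50), quantile normalized, floored at the 10th percentile, put on a log2 scale and averaged per rat in limma 3.58.1 under R 4.3.3. Probes were tested if 4 or more rats exceeded the 30th percentile, and all 6 groups entered 1 fit (lmFit and eBayes, 23 residual degrees of freedom) with Benjamini-Hochberg adjustment over 6381 probes and a threshold of 0.05. Alternatives covered normalization, background, floor, filter, repeat arrays, spot geometry class and leaving out each rat. That class was set by spot diameter (above 18) and background area (450 or below), with rat as a random effect. The script was tested on simulated data. Members and lists were chosen with earlier results of these data known. Named were members past the threshold, largest difference first (up to 12 per family and direction averaged over diets, up to 6 within a diet), plus a preset list of central factors, and the other members named are given as values. Of that preset list, Rpl3, Rplp0, Eef1a1, Eef2, Eif4g1, Eif5a and Eif6 had no member probe. Promoter windows came from RefSeq's GRCr8 table.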

Additional observations from a re-analysis of the deposited data

Results flagged for a closer look

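Dixon's test was applied to the 44 tested member probes and to both family medians, in each group of 4 or 5 rats. It marked 21 of 276 groups, where chance marks about 1 in 20, and none of the marks was on a family median. Each case is 1 rat whose log2 level stood apart from the others of its group.

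Fish oil rat 203 at 12 h was marked for 4 probes. It was at 14.93 for Rplp1, with the others at 14.62 to 14.66, at 10.26 for Eif2s3, with the others at 10.13 to 10.16, and at 12.40 for Eif4e2, with the others at 11.84 to 11.99. For Eif2ak2 it was at 8.44, with the others at 9.85 to 10.31. In the same group, rat 202 was at 8.25 for Eef2k, with the others at 7.64 to 7.76, and rat 205 was at 8.23 for Eif4ebp1, with the others at 8.66 to 8.74. Of the fish oil rats at 10 wk, rat 232 was at 14.37 for Rpl23, with the others at 14.62 to 14.65, and at 9.90 for Eif1ax, with the others at 10.37 to 10.46. Rat 233 was at 10.10 for Eef1e1, with the others at 10.86 to 10.99.

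Corn oil rat 131 at 10 wk was at 15.15 for Rps3a, with the others at 14.73 to 14.81, and at 11.60 for Eif4e2, with the others at 11.81 to 11.87. Rat 135 of that group was at 14.16 for Rps27, with the others at 14.36 to 14.41. Of the corn oil rats at 12 h, rat 106 was at 14.23 for Rps18, with the others at 14.32 to 14.35, and at 10.28 for Eif2ak4, with the others at 10.43 to 10.48. Rat 104 was at 14.33 for Rps27, with the others at 14.16 to 14.20.

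Olive oil rat 333 at 10 wk was at 7.04 for Eif3a, with the others at 7.58 to 7.74, and rat 332 was at 8.38 for Eif4ebp1, with the others at 9.02 to 9.23. Of the olive oil rats at 12 h, rat 306 was at 8.43 for Rpl13a, with the others at 9.69 to 10.01, and at 12.10 for Eif4e2, with the others at 12.00 to 12.02. Rat 301 was at 13.25 for Rps20, with the others at 14.01 to 14.28, and rat 304 was at 10.99 for Eif4g2, with the others at 12.09 to 12.30.

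Rps3a, Rps18, Eif3a, Eif4e2 and Eif2ak4 kept their calls averaged over diets whichever of the 29 rats was left out, and Rplp1 kept its call without rat 203.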

How the results depend on the processing

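Averaged over diets, the 6 ribosomal probes called higher became 3 under cyclic loess, 2 under median scaling, 2 with the first array of each rat, 3 with the spot geometry class as a block, and 0 with the deposited normalized values, also without replaced probes. Their median was -0.10 with the deposited values, where constants stand in for the signal, and Rplp1, Rps18, Rps19 and Rps3a turned to -0.20 each, and Rpl10, Rplp1 and Rps3a in olive oil rats to -0.33 each. The 3 factor probes called higher became 0 with the class as a block. The 5 lower became 3 with the deposited values and 2 without replaced probes, where the factor median was 0.048. In corn oil rats the factor count was 1 with rat as a random effect, with array quality weights and with the class as a block. In fish oil rats it was 0 with the deposited values, with or without replaced probes. In olive oil rats the ribosomal count was 2 under cyclic loess and 0 under median scaling, the class block and both deposited settings, and the factor count was 2 under median scaling and with first arrays, 1 with the deposited values, and 0 without replaced probes and with the class block. Over the 6 diet comparisons 1 ribosomal probe passed under array quality weights and 1 factor probe under both deposited settings. Without the 6 arrays of highest background, or with the members kept out of the quantile curve (both chosen after seeing the data), 7 ribosomal probes were higher. Leaving out 1 rat gave 2 to 9 ribosomal probes higher (2 without rat 234, 3 without 236 or 335, 9 without 232) and 0 to 0 lower, with a median of 0.12 to 0.19. Factor probes were 2 to 3 higher and 5 to 7 lower, with a median of -0.04 to -0.0049. Counts ranged from 0 to 1 for corn oil factors, 2 to 5 for fish oil factors, 1 to 7 for olive oil factors and 2 to 4 for olive oil ribosomal probes, and from 0 to 2 for factors between diets. Of 849 member values over 15 settings, 745 kept their side of the threshold, 85 lost it, 12 gained it and 7 turned. Losses and turns were scored for called members only. A change of sign in a probe that was not called was not counted as a turn. Averaged over diets, 165 values of called members were kept, 34 lost the threshold and 4 turned. In fish oil rats 50 were kept and 9 lost it, and in olive oil rats 101 were kept, 42 lost it and 3 turned. No paired analysis was possible because the repeat numbers in the sample names count arrays of 1 rat. The cause of these changes was not tested.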
